A study of Mus musculus with 6 samples.

Results

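The genes described here are 9 regulators of the plasminogen and coagulation systems, chosen by name: Plat, Plau, Plaur, Serpine2, Serpinb2, F3, Thbd, Tfpi and Tfpi2. All 9 were found among the 34745 genes of the deposited table, and all are annotated as protein-coding. They were measured by RNA sequencing in primary renal fibroblasts from wild-type mice, which had been isolated from digested kidney and grown in fibroblast medium. Of the 6 libraries, 3 came from fibroblasts cultured alone, with no treatment, and 3 from fibroblasts cocultured with induced Th17 cells, a class of helper T cell that makes interleukin-17. The fibroblasts attached for 6 h, the Th17 cells were then placed above them in a transwell insert with 0.4 μm pores, and fibroblasts of the lower chamber were collected after 24 h. An empty insert was not described for the fibroblasts alone, so the insert and any medium it brought cannot be told apart from the Th17 cells. When the fibroblasts alone were collected was not stated either, so time in culture may also differ between the groups. It was not stated whether the 3 libraries in each group represent separate wells or animals, and p-values therefore measure the spread between these libraries only.

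Plasmin, the main enzyme that dissolves fibrin, is cut from plasminogen by 2 activators, tissue-type (encoded by Plat) and urokinase-type (encoded by Plau). Urokinase is held at the cell surface by its receptor, encoded by Plaur, and both activators are blocked by inhibitors of the serpin family. Coagulation starts when tissue factor, encoded by F3, binds factor VII and sets off the steps that form thrombin. Tissue factor pathway inhibitor (Tfpi) limits that step, its relative Tfpi2 inhibits plasmin and other serine proteases, and thrombomodulin (Thbd) binds thrombin and turns it towards the activation of protein C. In kidney interstitium these proteases and inhibitors act on fibrin, on matrix and on latent growth factors.

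Libraries held 12050529 to 13209581 counts each, and a count of 3, taken as the floor of detection, corresponded to between 0.223 and 0.254 CPM (a count scaled to the library total, after correction by trimmed mean of M-values). All 9 regulators lay far above that floor in all 6 libraries, and all 9 were among the 13088 genes tested. Fibroblast markers were detected in full, 12 of 12, although their summed level was lower with Th17 cells (15959 to 17913 CPM) than alone (36061 to 37920 CPM). Most of that sum was Col1a1, Col1a2 and Col3a1, with log2 fold changes of -1.27, -1.43 and -2.18. Of the 12, 4 were lower and 1, Dcn, was higher by more than 2-fold (log2 fold change 1.5). By adjusted p, 9 were lower, 1 was higher and 2 missed the threshold. Among the other cell types, macrophage markers summed to 68.6 to 74.3 CPM alone and 20.8 to 22.1 CPM with Th17 cells. Of the 16 markers, 8 were tested, 6 of them fell by more than 2-fold, and Adgre1 was at 0 counts in all 3 libraries with Th17 cells. T cell markers summed to 6.98 to 9.32 CPM alone and 5.03 to 6.02 CPM with Th17 cells. Of the 14 markers, 2 were tested. Trac had 20, 40 and 38 counts alone and 41, 27 and 38 with Th17 cells (log2 fold change 0.03). Lck fell from a mean of 4.72 to 2.29 CPM (log2 fold change -1.04). Cd3e had 6 counts in replicate 3 with Th17 cells. At 0 counts throughout were 6 markers, Cd3d, Il17a and Il17f among them. Endothelial markers summed to 123 to 132 CPM alone and 273 to 309 CPM with Th17 cells. Of the 12 markers, 4 were tested: Flt1, most of the sum, rose from a mean of 117 CPM (log2 fold change 1.31), Kdr fell from 5.55 CPM (log2 fold change -5.34), and Pecam1 and Egfl7 missed the threshold. Tie1, Robo4, Cldn5, Erg and Emcn were at 0 counts in all 6 libraries. Epithelial markers summed to 6.40 CPM at most in any library. In bulk RNA a smaller number of cells of a type and less RNA per cell cannot be told apart.

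Of the 9 regulators, 7 differed between the groups at an adjusted p below 0.05 in edgeR's quasi-likelihood test, 5 of them higher with Th17 cells (Tfpi2, Serpinb2, Plau, Thbd and Serpine2) and 2 lower (Plat and F3). Among all genes tested, 17.1% were higher and 20.0% lower by that rule. With the added requirement of a fold change above 2, 3 regulators were higher (Tfpi2, Serpinb2 and Plau) and 1 was lower (Plat), against 3.87% and 7.78% of all genes tested. For 8 of the 9 regulators every library of 1 group lay above every library of the other, as it did for 50.4% of all genes tested. The median log2 fold change of the 9 was 0.38, and that of all genes tested was 0.00. The regulators were chosen with earlier results of these data known, and these counts are a description. Together they took 0.184% to 0.186% of all counts alone and 0.317% to 0.401% with Th17 cells.

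**Figure D1:**
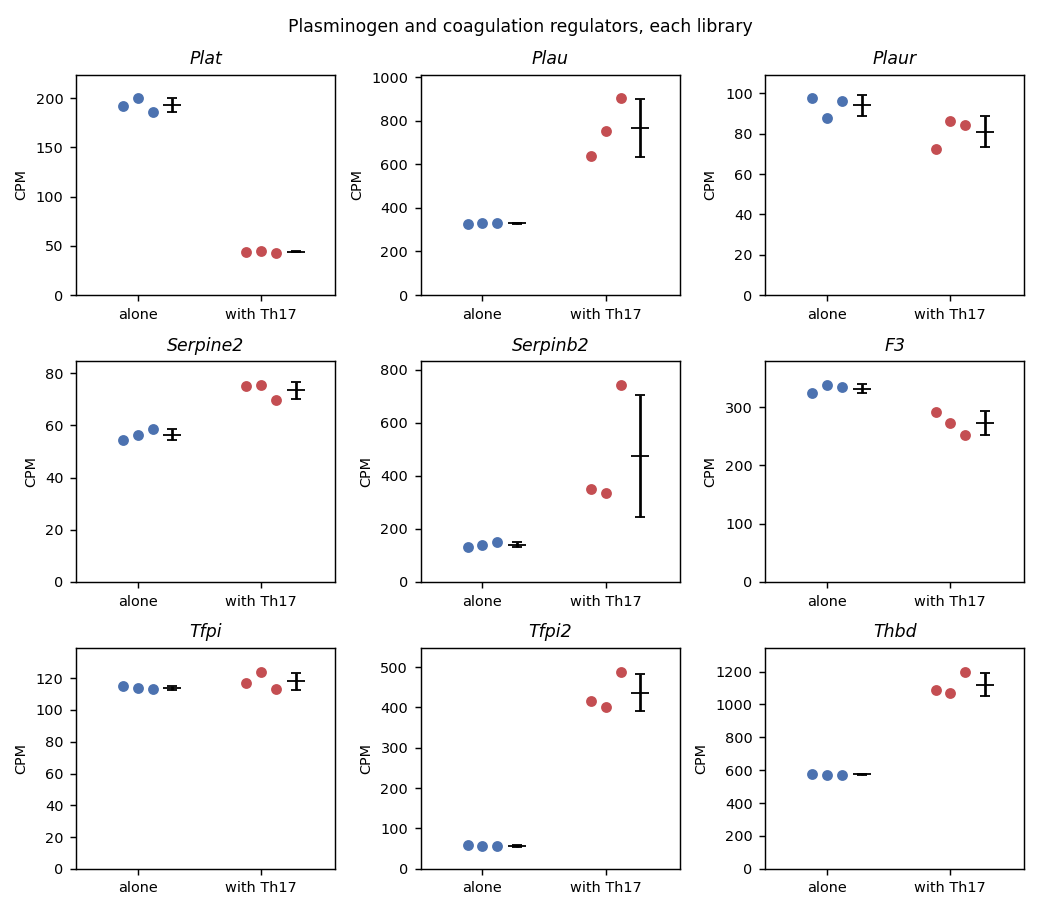
Normalised CPM (vertical axes, from 0) of the 9 regulators in each library of fibroblasts alone (blue) and with Th17 cells (red), with the mean and SD of 3 libraries in black. The groups overlap for Tfpi only, and 1 library with Th17 cells stands above the other 2 for Serpinb2.

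The 2 plasminogen activators moved in opposite directions. Plat (chromosome 8, 22757744 to 22782847, plus strand, GRCm38) stood at 192, 200 and 186 CPM in the 3 libraries alone and at 44.2, 44.6 and 43.2 CPM with Th17 cells. All 3 cocultured libraries lay below all 3 libraries alone, with no overlap. The mean fell 4.38-fold, from 193 ± 6.96 to 44.0 ± 0.719 CPM (SD, n = 3), a log2 fold change of -2.13 (adjusted p = 4.09e-08 in edgeR, SE 0.063). Plau (chromosome 14, 20836662 to 20843388, plus strand) stood at 328, 333 and 331 CPM alone and at 638, 751 and 904 CPM with Th17 cells. The libraries alone were nearly equal, and those with Th17 cells were all higher but spread more widely. The mean rose 2.31-fold, from 330 ± 2.81 to 765 ± 133 CPM, a log2 fold change of 1.21 (adjusted p = 3.36e-05 in edgeR, SE 0.11).

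Because the activators changed in opposite directions, their balance shifted further than either gene. Levels of different genes were compared as FPKM, a deposited measure that divides each count by gene length and by the library total. Fold and log2 changes of a ratio compare the group means of its log2 values. The level of such a ratio depends on the gene length used, so it is also given with the longest coding transcript as the length, a choice made after seeing the data, where that moved it by more than 1.5 times. The ratio of Plat to Plau by FPKM was 0.543, 0.556 and 0.522 alone and 0.064, 0.055 and 0.0443 with Th17 cells. No cocultured library came near the libraries alone. The mean ratio went from 0.540 ± 0.0173 to 0.0544 ± 0.0099, a log2 change of -3.33 (exact two-sided permutation test, p = 0.1, the smallest that 3 against 3 libraries allow). In shares, Plau made up 64.9% ± 0.732 of the FPKM of both activators alone and 94.8% ± 0.891 with Th17 cells (SD, n = 3).

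The urokinase receptor did not follow its ligand. Plaur (chromosome 7, 24462484 to 24475968, plus strand) stood at 97.6, 88.0 and 96.4 CPM alone and at 72.4, 86.4 and 84.2 CPM with Th17 cells. The groups did not overlap, but the lowest library alone and the highest with Th17 cells lay close together. The log2 fold change was -0.21 (adjusted p = 0.0768 in edgeR, SE 0.085), which missed the threshold. The ratio of Plaur to Plau by FPKM was 0.134, 0.119 and 0.131 alone and 0.0511, 0.0518 and 0.042 with Th17 cells, 2.66-fold lower by mean log2 ratio (exact two-sided permutation test, p = 0.1, the smallest possible). By longest coding transcript the mean ratios were 0.442 and 0.167. Plaur, Plau and Serpinb2 are also known from macrophages. Of the 8 macrophage markers tested, 7 were lower with Th17 cells by adjusted p. The other 1, Cd14, stood at a mean of 11.2 CPM in both groups. The part of macrophages in the levels of the 3 genes was not tested.

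Of the 2 serpins in the set, Serpinb2 had the larger fold change. Serpinb2 encodes plasminogen activator inhibitor 2, which acts mainly on urokinase. It lies on chromosome 1 from 107511423 to 107535478 on the plus strand. Its level was 133, 141 and 150 CPM alone and 349, 335 and 743 CPM with Th17 cells. All 3 cocultured libraries were higher, and replicate 3 stood 2.17-fold above the mean of the other 2, a ratio at the 98.9th percentile of all genes tested. The mean rose 3.36-fold, from 141 ± 8.82 to 476 ± 231 CPM, a log2 fold change of 1.75 (adjusted p = 0.000993 in edgeR, SE 0.274). Without replicate 3 with Th17 cells the log2 fold change was 1.28 (adjusted p = 3.78e-06 in edgeR, SE 0.065). Serpinb2 was therefore higher by more than 2-fold with and without that library. The same library was less far from its group for Plau (1.3-fold above the other 2), Tfpi2 (1.19-fold) and Thbd (1.11-fold).

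Serpine2 encodes protease nexin 1, which blocks thrombin as well as both activators. The gene lies on chromosome 1 from 79794197 to 79861180 on the minus strand. It stood at 54.5, 56.3 and 58.8 CPM alone and at 75.2, 75.5 and 69.8 CPM with Th17 cells. The groups did not overlap, and the difference was small beside that of Serpinb2. The log2 fold change was 0.38 (adjusted p = 0.00272 in edgeR, SE 0.071). The ratio of Serpine2 to the sum of Plat and Plau by FPKM was 0.0287, 0.0289 and 0.0311 alone and 0.0295, 0.0253 and 0.0197 with Th17 cells. These values overlapped between the groups (exact two-sided permutation test, p = 0.3), and by longest coding transcript the means were 0.118 and 0.0989. By FPKM, Serpinb2 made up 85.6% ± 0.295 of both serpins alone and 93.1% ± 2.72 with Th17 cells, and by longest coding transcript 73.5% ± 0.465 and 86.3% ± 5.08.

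Serpinb2 sits in a row of serpin genes on chromosome 1. Of the 7 others examined there, Serpinb5, Serpinb12, Serpinb13, Serpinb11, Serpinb7, Serpinb10 and Serpinb8, between positions 106861173 and 107610484, 6 had 9 counts or fewer in every library and were not tested. The exception was Serpinb8, with 21, 19 and 17 counts alone and 41, 21 and 18 with Th17 cells. Its groups overlapped, and it missed the threshold (log2 fold change 0.41, adjusted p = 0.387 in edgeR, SE 0.343). Serpinb2 itself reached 1786 counts alone and 9763 with Th17 cells. Serpinb10, the 1 annotated gene that overlaps a regulator of the set, runs on the same strand and had 0 counts in all libraries alone and 1, 1 and 9 with Th17 cells.

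On the coagulation side, the initiator fell slightly. F3 (chromosome 3, 121723537 to 121735048, plus strand) stood at 324, 338 and 335 CPM alone and at 292, 273 and 252 CPM with Th17 cells. The groups did not overlap. The log2 fold change was -0.29 (adjusted p = 0.00848 in edgeR, SE 0.067), a mean 1.22-fold lower. Tfpi, the inhibitor that acts on tissue factor with factor VII, did not separate the groups. Its gene lies on chromosome 2 from 84432855 to 84476775 on the minus strand. It stood at 115, 114 and 113 CPM alone and at 117, 124 and 113 CPM with Th17 cells, and the values overlapped (log2 fold change 0.05, adjusted p = 0.592 in edgeR, SE 0.062). The ratio of F3 to Tfpi by FPKM went from 10.2 ± 0.304 alone to 8.10 ± 0.584 with Th17 cells, 1.26-fold lower (exact two-sided permutation test, p = 0.1, the smallest possible), and was 6.18 and 4.91 by longest coding transcript.

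Tfpi2 showed the largest fold change of the 9. The gene (chromosome 6, 3962595 to 3988919, minus strand) encodes a Kunitz-type inhibitor that is laid down in the extracellular matrix. Its level was 60.1, 55.2 and 55.4 CPM alone and 417, 402 and 488 CPM with Th17 cells. All cocultured libraries stood far above all libraries alone. The mean rose 7.66-fold, from 56.9 ± 2.80 to 436 ± 46.1 CPM, a log2 fold change of 2.94 (adjusted p = 4.56e-08 in edgeR, SE 0.089). Its ratio to Tfpi by FPKM was 3.31, 3.06 and 3.12 alone and 22.7, 20.5 and 27.4 with Th17 cells, 7.40-fold higher by mean log2 ratio (exact two-sided permutation test, p = 0.1, the smallest possible). By longest coding transcript the mean ratios were 1.29 and 9.64. The 2 related inhibitors thus stood apart in the same libraries, with Tfpi overlapping between groups and Tfpi2 not.

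Thbd rose together with Plau, Serpinb2 and Tfpi2 but ended just short of the fold limit. The gene lies on chromosome 2 from 148404466 to 148408188 on the minus strand and has 1 annotated transcript. It stood at 578, 571 and 572 CPM alone and at 1090, 1071 and 1198 CPM with Th17 cells. The groups were clearly separated, and the mean rose from 574 ± 3.60 to 1120 ± 68.5 CPM. The log2 fold change was 0.96 (adjusted p = 2.36e-06 in edgeR, SE 0.059), and it was 1.03 when libraries were scaled by their totals alone, which is past the limit. The ratio of Thbd to F3 by FPKM rose from 1.56 ± 0.0445 to 3.73 ± 0.490, 2.38-fold (exact two-sided permutation test, p = 0.1, the smallest possible). By longest coding transcript it was 0.868 alone, where F3 then stood above Thbd, and 2.08 with Th17 cells. Thbd is best known from endothelium. Of the 12 endothelial markers, Flt1 rose with Thbd, Kdr fell, Pecam1 and Egfl7 were detected and missed the threshold, and 5 were at 0 counts throughout, and the part of endothelial cells in the Thbd level was not tested.

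**Figure D2:**
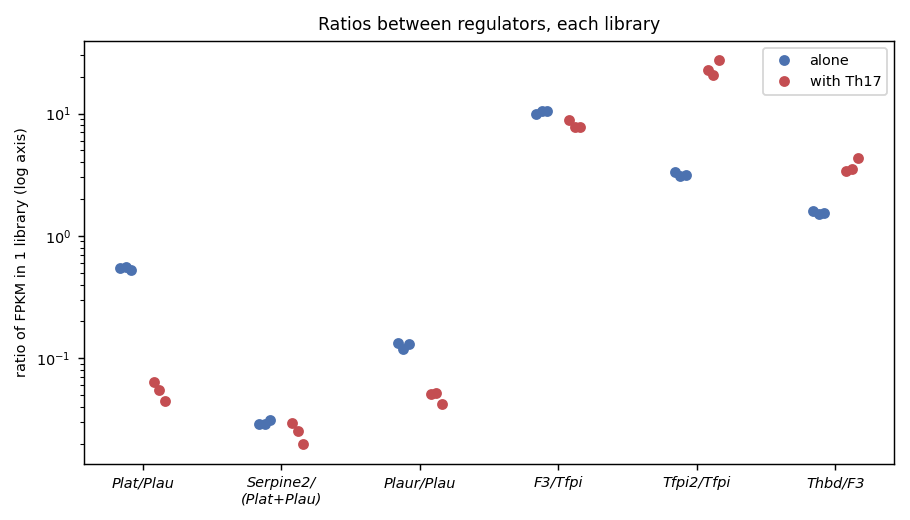
Ratio of deposited FPKM between regulators (log axis) in each of the 3 libraries alone (blue) and with Th17 cells (red). Plat/Plau and Plaur/Plau lie lower and Tfpi2/Tfpi and Thbd/F3 higher with Th17 cells with no overlap, F3/Tfpi lies slightly lower, and Serpine2/(Plat+Plau) overlaps.

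Levels per length put Thbd first and Plau second in fibroblasts alone, at 151 ± 0.783 and 138 ± 1.40 FPKM (SD, n = 3). F3 followed at 96.7 ± 2.32 FPKM, Plat at 74.5 ± 2.57, Serpinb2 at 37.2 ± 2.44 and Tfpi2 at 30.0 ± 1.40. Plaur at 17.7 ± 0.990, Tfpi at 9.48 ± 0.0794 and Serpine2 at 6.28 ± 0.263 FPKM closed the order. Each neighbour in that order was separated from the next by more than the spread of the libraries. With Th17 cells the order began with Plau at 334 ± 59.5 and Thbd at 307 ± 20.7 FPKM, of which Thbd lay within the SD of Plau. Next came Tfpi2 at 240 ± 26.9, Serpinb2 at 131 ± 64.6 and F3 at 82.8 ± 5.87 FPKM, of which F3 lay within the SD of Serpinb2. Plat followed at 17.8 ± 0.182, narrowly above Plaur at 15.9 ± 1.46 FPKM, while Tfpi at 10.2 ± 0.417 and Serpine2 at 8.53 ± 0.326 were last. Between the orders, Tfpi2 went from place 6 to place 3, Plat from place 4 to place 6 and F3 from place 3 to place 5, while Plau, Thbd and Serpinb2 each moved by 1 place.

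The order depends on the gene length used. The length behind the deposited FPKM was 11764 bases for Tfpi, 8806 for Serpine2 and 5197 for Plaur, whereas the longest annotated coding transcripts have 3968, 2210 and 1506 bases. Scaled by the longest coding transcript, F3 came first in fibroblasts alone at a scaled level of 174, and Plat came last with Th17 cells at 17.8. Plau and Thbd stayed the first 2 with Th17 cells, and Tfpi2 and Serpinb2 stayed next after them. The fold difference of a gene between the groups is not touched by the length.

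**Figure D3:**
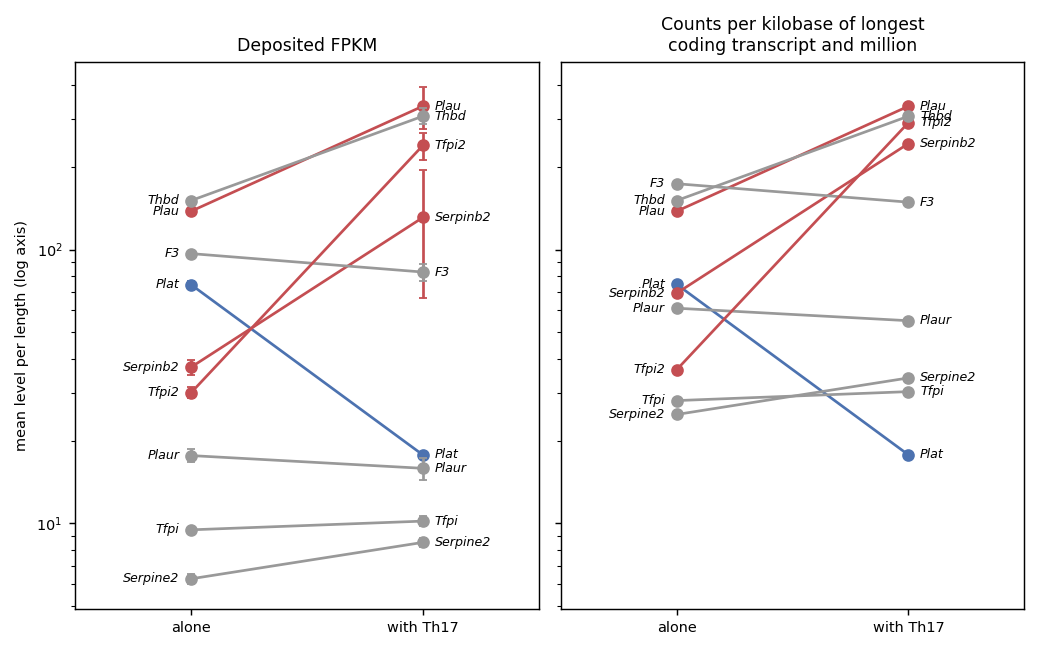
Mean level per length (log axis) of the 9 regulators alone and with Th17 cells, as deposited FPKM with SD of 3 libraries (left) and scaled by the longest coding transcript (right). Red lines are genes higher and blue lines genes lower with Th17 cells by more than 2-fold at an edgeR adjusted p below 0.05, and grey lines are the others, Thbd included.

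The bases before the start site are shown for 4 regulators to compare the inhibitor that rose most with 3 genes that share a short motif and differed in response. RefSeq start sites on GRCm38.p6 were matched for 6 of the 9 genes (Plaur, Serpine2, Serpinb2, F3, Tfpi and Tfpi2), and the 250 bases before each start are given 5′ to 3′ on the gene's strand. The start of Serpine2 lay 2515 bases from the 5′ end of the deposited gene, so its window falls inside that gene. The other starts lay within 17 bases of that end. Capitals mark TGANTCA, the core that AP-1 factors bind, which reads TGANTCA on both strands. Serpinb2 is at chr1:107511173-107511422 on the plus strand, F3 at chr3:121723287-121723536 on the plus strand, Plaur at chr7:24462233-24462482 on the plus strand and Tfpi2 at chr6:3988937-3989186 on the minus strand.
Serpinb2: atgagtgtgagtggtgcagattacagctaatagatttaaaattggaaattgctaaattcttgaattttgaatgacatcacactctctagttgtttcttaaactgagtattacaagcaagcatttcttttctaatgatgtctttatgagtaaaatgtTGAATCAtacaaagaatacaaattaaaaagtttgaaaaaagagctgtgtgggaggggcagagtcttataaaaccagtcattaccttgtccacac
F3: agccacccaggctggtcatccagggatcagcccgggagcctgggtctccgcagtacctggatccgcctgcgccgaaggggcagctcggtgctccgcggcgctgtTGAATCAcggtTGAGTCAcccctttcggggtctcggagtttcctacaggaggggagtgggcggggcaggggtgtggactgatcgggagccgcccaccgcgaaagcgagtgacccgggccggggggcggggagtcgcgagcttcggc
Plaur: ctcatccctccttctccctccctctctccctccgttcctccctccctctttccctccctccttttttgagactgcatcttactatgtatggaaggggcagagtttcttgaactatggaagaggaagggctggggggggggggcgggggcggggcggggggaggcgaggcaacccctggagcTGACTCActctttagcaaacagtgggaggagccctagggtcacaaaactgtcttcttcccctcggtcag
Tfpi2: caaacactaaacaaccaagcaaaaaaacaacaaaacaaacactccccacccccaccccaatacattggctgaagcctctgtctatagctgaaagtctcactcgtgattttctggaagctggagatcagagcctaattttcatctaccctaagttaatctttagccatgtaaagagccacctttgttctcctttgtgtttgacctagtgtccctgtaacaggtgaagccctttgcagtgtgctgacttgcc

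The AP-1 letters TGANTCA occurred in 3 of the 6 windows, while 6.75% of all 32851 windows of this length hold them. Serpinb2 has 1 match, from base -94 to -88 before the start, Plaur has 1 from -69 to -63, and F3 has 2, from -146 to -140 and from -135 to -129. The 3 genes differed in direction, since Serpinb2 rose, F3 fell slightly and Plaur missed the threshold. Tfpi2, with the largest rise, has none in this window. The letters TTGCNNAA, a core that C/EBP factors bind, occurred on either strand in Serpinb2 and Plaur (9.56% of all windows). TATAAA, searched on both strands, lies from -29 to -24 in Serpinb2, and its reverse complement lies from -127 to -122 in Tfpi (12.4% of all windows). The letters TGACGTCA (1.55%) and GGAATG (12.6%) and the NF-kB motif (3.90%) were in none of the 6 windows. A match is a description of the letters and not of a bound site.

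The proenzymes of plasmin and thrombin were not detected. Plg, which encodes plasminogen, and F2, which encodes prothrombin, had 0 counts in all 6 libraries, which allows at most 0.254 CPM in the library with the fewest counts. Of 18 other plasminogen genes (receptors, clearance receptors, further inhibitors and substrates), 10 were tested. By adjusted p, 1 was higher, Hgf at a log2 fold change of 0.58 (adjusted p = 0.00117 in edgeR, SE 0.094), and 6 were lower. Hgf encodes a growth factor that serine proteases, urokinase among them, can cut into its active form, and it is named here after its values were seen. The median log2 fold change of the 10 was -0.27, and 2 were lower by more than 2-fold. Among all genes tested, 17.1% were higher and 20.0% lower by adjusted p, and 7.78% were lower by more than 2-fold. S100a10, which with annexin A2 forms a plasminogen receptor at the cell surface, stood at 97.3, 111 and 107 CPM alone and at 37.2, 41.5 and 53.4 CPM with Th17 cells. The groups did not overlap (log2 fold change -1.25, adjusted p = 6.37e-05 in edgeR, SE 0.127). Anxa2, which encodes annexin A2, is named here after its values were seen. Its mean was 860 CPM alone and 712 CPM with Th17 cells (log2 fold change -0.27, adjusted p = 0.00786 in edgeR, SE 0.062). Lrp2, an endocytic receptor named after its values were seen, had 27 to 49 counts alone and 4 to 11 with Th17 cells (log2 fold change -2.36, adjusted p = 0.001 in edgeR, SE 0.371), and by limma on log2(FPKM + 1) it was lower by less than 2-fold. Lrp2 is also among the epithelial markers listed.

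Of 26 other coagulation genes, 12 had 0 counts in every library and 6 were tested. Of these, 4 were lower by adjusted p in edgeR, each by less than 2-fold, and the other 2 missed the threshold. The median log2 fold change of the 6 was -0.25. Among all genes tested, 20.0% were lower by adjusted p. Procr, the receptor on which protein C is activated by the thrombin-thrombomodulin complex, stood at 77.5, 76.3 and 64.2 CPM alone and at 74.6, 91.3 and 108 CPM with Th17 cells. The values overlapped (log2 fold change 0.33, adjusted p = 0.0813 in edgeR, SE 0.132), whereas those of its partner Thbd did not. The call for Procr depended on the fit: the adjusted p was 0.0412 by DESeq2, 0.0429 in edgeR with scaling by library totals and 0.0148 in edgeR without replicate 1 with Th17 cells, and the log2 fold change was 0.19 without replicate 3 with Th17 cells (adjusted p = 0.221 in edgeR). Of the 4 genes of the thrombin receptor family (F2r, F2rl1, F2rl2 and F2rl3), 2 were tested. F2r, the main thrombin receptor of fibroblasts, was high in both groups, at 254 ± 8.83 and 272 ± 11.9 FPKM, and overlapped (log2 fold change 0.04, adjusted p = 0.633 in edgeR, SE 0.056). F2rl2, a related receptor named after its values were seen, had 35, 47 and 45 counts alone and 4, 8 and 6 with Th17 cells (log2 fold change -2.87, adjusted p = 0.000158 in edgeR, SE 0.332). By limma on log2(FPKM + 1), the fold change of F2rl2 was -0.97 on the log2 scale, just short of the limit.

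Of 18 other serpins, 12 were tested, 3 were higher and 1 lower by more than 2-fold, and by adjusted p 5 were higher and 4 lower (median log2 fold change 0.32). Among all genes tested, 3.87% were higher and 7.78% lower by more than 2-fold, and 17.1% and 20.0% by adjusted p. The 3 serpins that rose by more than 2-fold belong to the Serpina3 cluster. Serpina3g rose at a log2 fold change of 2.88 (SE 0.088), Serpina3n at 2.82 (SE 0.174) and Serpina3f at 2.17 (SE 0.319), with edgeR adjusted p between 4.56e-08 and 0.000672. These genes are near copies of each other, and how fragments that fit several of them were counted was not stated, so their separate values are uncertain. Serping1, which inhibits proteases of complement and of the contact system of coagulation, had 5762, 6255 and 5822 counts alone and 1110, 1155 and 909 with Th17 cells. It fell by 2.56 on the log2 scale (adjusted p = 1.57e-07 in edgeR, SE 0.101), with no overlap.

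**Figure D4:**
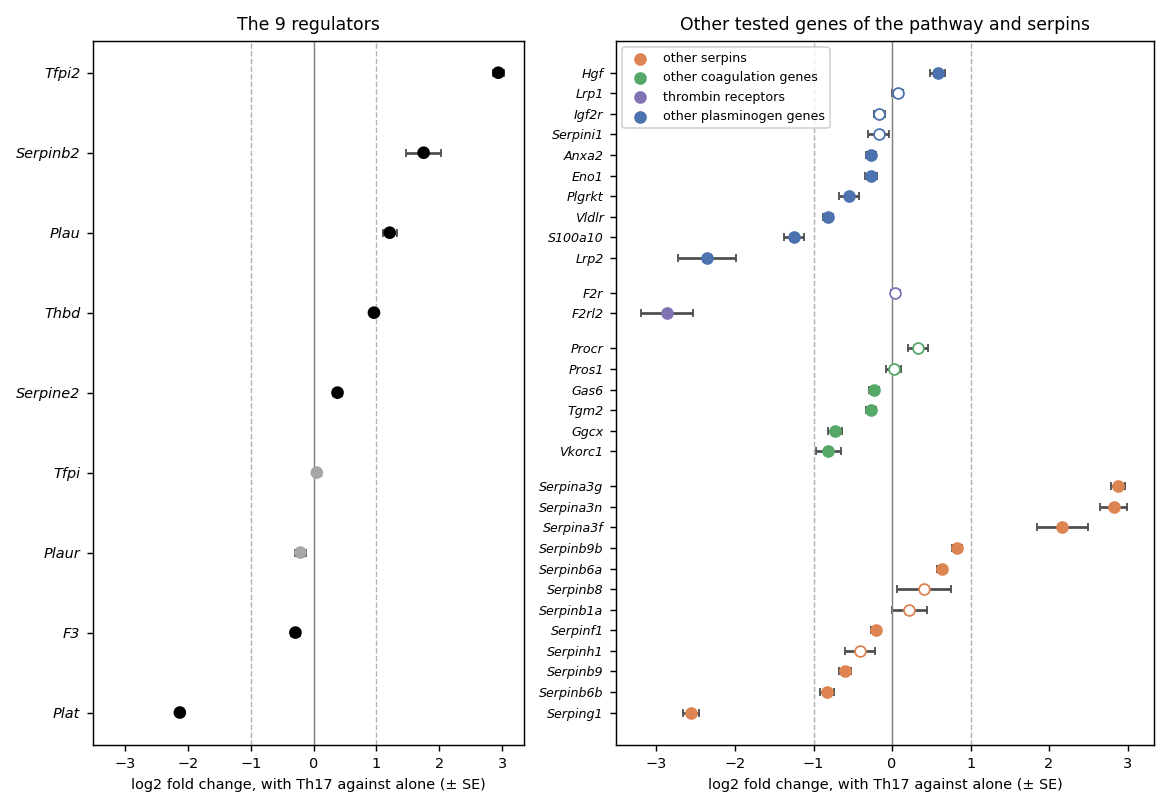
Log2 fold change with Th17 cells against alone, with its SE, for the 9 regulators (left) and the other tested genes of the pathway and serpins (right). Black and filled points have an edgeR adjusted p below 0.05, grey and open points do not, and dashed lines mark a fold change of 2. Tfpi2 lies highest and Plat lowest of the 9.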

How the data were processed

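RNA was sequenced in 6 libraries of primary mouse renal fibroblasts, 3 per group, with groups taken from the sample titles. Per the study's methods and the submitters' processing notes, reads were filtered with Seqtk, aligned to mm10 with HISAT2 2.0.4 and counted per gene with StringTie 1.3.3b. The authors deposited raw fragment counts per gene and library, and beside them FPKM values, which can be recomputed from the count, the library total and 1 length per gene (10223 genes with at least 50 counts in every library, spread over libraries at most 0.0016%) and so carry no further scaling. Strand use and the handling of fragments that fit several genes were not given in the sources used here. Positions are those of the deposited table, on GRCm38, and 34267 identifiers were found in GENCODE M21.

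Counts were fitted with edgeR 4.0.16 in R 4.3.3 (filterByExpr with a minimum count of 10, trimmed mean of M-values, quasi-likelihood test, Benjamini-Hochberg over 13088 genes). Genes were past the threshold where the adjusted p was below 0.05 and the change exceeded 2-fold, the limits that the study's methods give. Total counts were 12050529 to 13209581 per library. The biological coefficient of variation was 11.6%. Floors cover counting error only. Libraries of a group differed by more than sampling noise (chi-square per gene at least 6.32). Ratios of FPKM were compared by an exact two-sided permutation test over 6 libraries, for 6 ratios, with no p below 0.1 possible. Alternatives used DESeq2 1.42.0, limma 3.58.1 on log2(FPKM + 1) and log2(FPKM + 0.1), other scalings and filters, a replicate block and leaving out each library. The members and gene lists were chosen with earlier results of these data known. Beyond the 9 regulators, the genes named were those of each list past the threshold that averaged 50 counts or more in whichever group was higher, at most 4 per list, with Plg, F2, F2r and Procr in any case, and exceptions are stated. Promoter sequences are from RefSeq on GRCm38.p6, and lengths of coding transcripts from GENCODE M21. A further gene of the plasminogen list is not reported here and was left out of that list's counts.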

Additional observations from a re-analysis of the deposited data

How the results depend on the processing

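Of the 9 regulators, 4 were past the threshold in the reported edgeR fit and under DESeq2, 2 other scalings, both other count filters and each fit that left out a library, 5 with scaling by library totals only and in both limma fits on FPKM (Thbd joined), and 7 with no limit on fold change. Over the 15 alternatives no regulator changed sign, and log2 fold changes ranged from -2.16 to -2.01 for Plat, 2.85 to 3.0 for Tfpi2, 1.28 to 1.95 for Serpinb2, 1.07 to 1.33 for Plau and 0.92 to 1.03 for Thbd. Over all genes, 1524 were past the threshold, 626 by limma on log2(FPKM + 1), whose pseudocount shrinks low genes, and 4856 with no limit on fold change. Leaving out a library gave 1493 to 1546.

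Same-numbered libraries had correlations of deviations from their group mean of 0.0157, -0.0256 and -0.0036. With 3 libraries per group, these values cannot decide whether libraries were paired by origin, which was not stated. With replicate block, 1495 genes and 4 regulators were past the threshold. Scaling by library totals moved the median of all genes by 0.06. Without replicate 3 with Th17 cells, the log2 change of Serpine2/(Plat+Plau) was -0.11 in place of -0.27. By limma on log2(FPKM + 1), Lrp2 was at -0.18. With the count filter of 10 in every library, Lrp2 and F2rl2 were not tested. Places in the order of levels changed with gene length for 5 of 9 regulators alone and 3 with Th17 cells. Over the alternatives, the adjusted p of Procr ranged from 0.0148 to 0.246. With 3 libraries per group, no ratio could reach a p below 0.1.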
